A study of Mus musculus with 25 samples.

Results

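The strains described here are the 2 ends of a range: the 8 BXD strains with the highest and the 8 with the lowest expression of glucocorticoid target genes in the dorsal root ganglion, out of 25 strains in all. They were chosen by a score, the mean of log2(value + 1) of Zbtb16, Hif3a, Fkbp5, Pdk4 and Tsc22d3 in each strain's library. The 8 high strains were BXD5, BXD11, BXD14, BXD16 and BXD34, whose strain names end in TyJ, and BXD44, BXD60 and BXD89, whose names end in RwwJ. The 8 low strains were BXD13, BXD15, BXD21, BXD28 and BXD36 (TyJ) and BXD55, BXD68 and BXD77 (RwwJ), so the endings were split 5 to 3 in both groups. The other 9 strains lay between them and entered no comparison of the groups. The groups were defined from the data and are not groups of the study.

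BXD strains are recombinant inbred mouse lines that descend from an F2 cross between C57BL6/J and DBA2/J. Every mouse was 8 weeks old and the labels name no treatment. Each strain had 1 library of ganglion RNA, and the labels give no sex, no number of animals behind a library and no time of day. Differences of genotype, animal, dissection and library therefore cannot be told apart. Values are scaled counts, read counts that were brought to a common upper quartile and rounded in the deposited table.

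Glucocorticoid hormone, mainly corticosterone in mice, enters cells and binds the glucocorticoid receptor, which chaperones hold ready in the cytoplasm. The bound receptor moves to the nucleus and attaches to DNA at a palindrome of 2 short half-sites, where it switches nearby genes on, and it holds back many inflammatory genes. Blood corticosterone follows a daily rhythm and climbs with stress and fasting, and sensory ganglia contain neurons, glia and vessels that carry the receptor.

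The score ran from 9.94 in BXD5 to 8.28 in BXD13, a 3.14-fold range, and the means of both groups differed by 1.11 on the log2 scale. The cut at the top fell between near-equal strains: BXD89 was taken with a score of 9.31 and BXD9 was left out with 9.30. The cut at the bottom was as narrow, with BXD36 taken at 8.59 and BXD1 left out at 8.60. A wider step lay among the strains between, from 9.14 in BXD48 to 8.79 in BXD6.

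The 5 genes of the score are described without a test because they chose the strains. Hif3a, which encodes a hypoxia-inducible factor subunit, was at 105, 125 and 257 scaled counts (lowest, median, highest) in the high strains and at 27, 37 and 46 in the low strains. Zbtb16, a zinc-finger transcription factor, was at 205, 269 and 375 in the high strains and at 71, 86.5 and 108 in the low strains. Tsc22d3, which encodes the anti-inflammatory protein GILZ, was at 6486, 7940 and 10185 against 4656, 5458 and 6390. These 3 genes separated the groups fully, with ratios of the means of 4.04 for Hif3a, 3.12 for Zbtb16 and 1.49 for Tsc22d3. Fkbp5, a co-chaperone that lowers the receptor's affinity for hormone, was at 1618, 1912 and 2870 in the high strains and at 1102, 1232 and 1675 in the low strains. Pdk4, a mitochondrial kinase that spares glucose, was at 227, 348 and 801 against 138, 222.5 and 357. Fkbp5 overlapped through BXD16 alone, while for Pdk4 only 3 of 8 high strains exceeded every low strain. Over the 25 strains Pearson's r between pairs of these genes ran from 0.29 for Pdk4 with Zbtb16 to 0.80 for Hif3a with Zbtb16, a description of points that share a library.

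**Figure D1:**
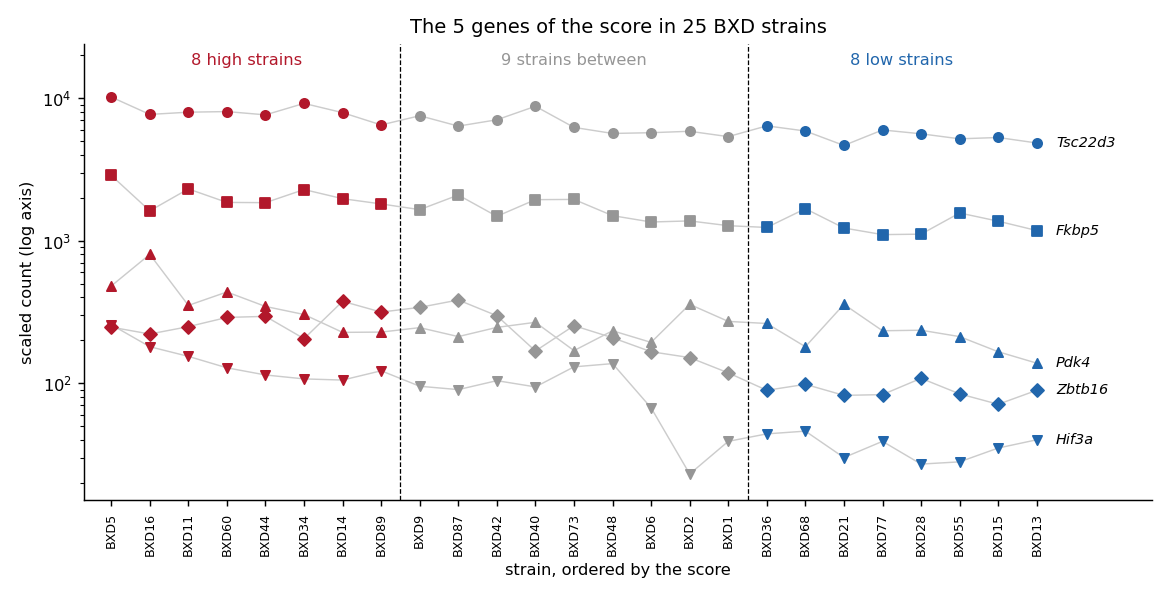
Scaled counts (log axis) of the 5 genes of the score in the 25 strains, ordered from the highest score (left) to the lowest (right); 1 point is 1 library and dashed lines mark the cuts. Hif3a and Zbtb16 show the widest gap between the ends, and Pdk4 overlaps.

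The first comparison asked which other genes differed between the 8 high and the 8 low strains. No gene passed: limma called 0 of 16147 genes (0%) at an adjusted p under 0.05, and an exact rank-sum test called 0 as well. At an unadjusted p under 0.05, limma found 784 genes and the rank-sum test 711. Of the 784, 428 had a higher mean in the high strains, 2.65% of all genes tested, and 356 a lower mean, 2.2%. The smallest limma adjusted p was 0.186 and was shared by 7 genes: Sgk1, Klf15, Prodh and Usp2, all higher in the high strains, and Fabp7, Col2a1 and Rpap2, all lower. The count of 784 was 514 without BXD21, 1206 without BXD68 and 1781 with the skeletal muscle level as a covariate.

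A second fit used the score as a continuous measure over all 25 strains. With the strains between included, 12 genes passed (0.0743% of genes tested; limma, Benjamini-Hochberg), 11 rising and 1 falling with the score. The genes that rose were Sgk1, Klf15, Map3k6, Slc9a3, Pik3r1, Fam107a, Prodh, Usp2, Mt2, Plin4 and Mertk, and the gene that fell was Col2a1. Of these 12, 8 were on the list of glucocorticoid targets outside the score. Sgk1, Klf15 and Map3k6 passed in each of the 25 fits that left out 1 strain. The count rested on several strains: it was 4 without BXD5 or BXD13, 5 without BXD11, 6 without BXD14, BXD21 or BXD44, and 7 without BXD34 or BXD89. The score and the genes were read from the same libraries.

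Sgk1 (ENSMUSG00000019970, chromosome 10), a kinase that takes its name from serum and glucocorticoid control and regulates ion transport, stood first in the continuous fit. It was at 1075, 1336 and 1604 scaled counts (lowest, median, highest) in the high strains, at 789, 1101 and 1486 in the strains between and at 563, 875 and 1046 in the low strains. Every high strain lay above every low strain, with BXD13 and BXD21 lowest of all 25. Its log2 difference, high minus low, was 0.70 ± 0.13 (SE, n = 8 and 8; limma adjusted p = 0.186, from 0.00212 to 0.768 over 41 alternatives). The continuous fit gave an adjusted p of 0.00212. Klf15 (ENSMUSG00000030087, chromosome 6), a transcription factor of amino acid and glucose metabolism, was at 421, 491 and 854 against 192, 301.5 and 401. All 8 high strains again exceeded all 8 low strains, by a log2 difference of 0.90 ± 0.17 (limma adjusted p = 0.186, from 0.00212 to 0.751 over the alternatives).

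The data hold no promoter sequence, so reference sequence was searched, and 1 promoter is shown for each of 2 of these genes. RefSeq promoter windows of GRCm38.p6 (250 bases before a start and 50 after it) were searched on both strands for the full receptor element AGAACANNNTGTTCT and for its half-site TGTTCT or AGAACA, which the full element contains. The full element occurred in 3 of 32851 windows (0.00913%), and 1 of these was at a start of Sgk1. It is shown because of this match, which the windows at other Sgk1 starts lacked. The half-site occurred in 18.974% of all windows. The 250 bases before that Sgk1 start (chr10:21993640-21993889, plus strand) carry the full element, in capitals, with its first base 189 bases before the start. The whole window holds 3 half-sites, the pair in the element included, and the other one is left in lower case. The same stretch before a start of Fam107a (chr14:8309780-8310029, minus strand) carries half-sites only, in capitals, with their first bases 158 and 110 bases before the start.
Sgk1: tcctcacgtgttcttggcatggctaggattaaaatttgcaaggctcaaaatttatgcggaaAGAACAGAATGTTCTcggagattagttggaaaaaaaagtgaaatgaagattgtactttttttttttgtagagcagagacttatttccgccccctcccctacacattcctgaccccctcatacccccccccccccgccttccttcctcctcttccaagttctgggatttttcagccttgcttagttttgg
Fam107a: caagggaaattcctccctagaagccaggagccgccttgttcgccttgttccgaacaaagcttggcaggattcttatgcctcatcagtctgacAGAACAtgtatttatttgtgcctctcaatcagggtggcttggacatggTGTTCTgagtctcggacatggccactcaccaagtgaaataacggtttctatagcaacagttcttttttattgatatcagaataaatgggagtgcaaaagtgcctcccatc
Of the 42 listed targets tested, 36 had a window, and the full element was found for 1 gene and the half-site for 4 genes (Sgk1, Fam107a, Sult1a1 and Bcl6). These 4 are 11.1% of the genes with a window, beside 21.3% of all genes. Of the 5 genes of the score, 4 had a window, and the half-site was found at 1 start of Tsc22d3. A match is a description of letters, and receptor binding was not measured.

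Glucocorticoid targets outside the score had higher levels in the high strains in most cases, without passing adjustment in the comparison of groups. The list of 44 textbook targets was written with earlier results of these data known, so it is not independent evidence of a direction. Of its 42 members tested, 38 had a higher mean in the high strains and 4 a lower one, and the median log2 difference was 0.26, beside 0.00 over all genes tested. At an unadjusted limma p under 0.05, 18 members were higher, beside 2.65% of all genes, and 0 were lower. The count was 17 to 22 when 1 strain at a time was left out, and 23 in the TyJ strains alone. In the 9 strains between, which took no part in the contrast, 23 of the 42 members had a slope on the score of the same sign as the difference between the groups (54.8%, beside 49.3% of all genes tested). The mean of those 9 strains lay between the means of both groups for 25 members (59.5%, beside 43.3%). Skeletal muscle genes had higher means in the same strains, in 12 of 12 cases. With the muscle level as a covariate, 18 of the 42 targets were again higher at an unadjusted p under 0.05, and the log2 difference was 0.70 for Sgk1, 0.94 for Klf15, 1.50 for Fam107a, 0.89 for Plin4 and -1.34 for Fabp7.

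Among kinases and signalling genes of the list, Map3k6, a stress-activated kinase kinase, was at 192, 282 and 437 scaled counts in the high strains and at 97, 171 and 231 in the low strains. Only BXD44 among the high strains lay within the range of the low strains, and the log2 difference was 0.81 ± 0.17. Pik3r1, the regulatory subunit of phosphoinositide 3-kinase, was at 4655, 5366 and 6742 against 3588, 4357 and 4930. It had a small difference of 0.35 ± 0.08, with 6 of 8 high strains above every low strain. Mertk, a receptor by which phagocytes recognise dying cells, was at 257, 297.5 and 423 against 152, 203 and 267, with 7 of 8 high strains above the low range. Ddit4, an inhibitor of mTORC1, had a log2 difference of 0.48 ± 0.14, and its ranges overlapped widely, from 1943 to 3701 in the high strains and from 1451 to 2977 in the low strains.

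Fam107a, a stress-responsive actin-associated gene, had the largest difference of the list. It was at 433, 992.5 and 1546 in the high strains and at 152, 405 and 715 in the low strains, a log2 difference of 1.28 ± 0.27 (limma adjusted p = 0.283, from 0.00388 to 0.938 over 41 alternatives). BXD16, the second by score, had the lowest Fam107a of the high strains and was the single one within the low range. Plin4, a coat protein of lipid droplets, was at 166, 210.5 and 413 against 58, 116 and 188, a difference of 1.09 ± 0.24. The metallothioneins, which bind zinc and copper, differed in size: Mt2 was at 1066, 1364 and 2406 against 556, 734.5 and 1332 (0.89 ± 0.19), and Mt1 was at 1792, 2334 and 3137 against 1265, 1687 and 2999 (0.35 ± 0.17). For Mt2 5 of 8 high strains exceeded every low strain, and for Mt1 1 did.

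Beside Klf15 and Per1, whose ranges did not overlap, the regulators Klf9 and Nfkbia had higher means in the high strains with overlap. Klf9, a zinc-finger repressor, was at 1609, 1766 and 2548 against 966, 1340 and 1723, and 6 of 8 high strains lay above the low range. Nfkbia, the inhibitor that keeps NF-kB in the cytoplasm, was at 1029, 1174 and 1610 against 595, 913.5 and 1149, with 4 of 8 above it. The log2 differences were 0.48 ± 0.12 for Klf9 and 0.48 ± 0.13 for Nfkbia. Gadd45g, Sult1a1, Arrdc2, Foxo3, Mknk2 and Per1 complete the 18 members, with log2 differences from 0.20 for Mknk2 to 0.62 for Sult1a1. Other textbook targets did not separate the groups. Cdkn1a, a cell cycle inhibitor, was at 1507, 1924 and 2402 against 1542, 1990 and 2109, and Dusp1, a phosphatase of MAP kinases, at 635, 796.5 and 1508 against 610, 780.5 and 989. Angptl4, a secreted inhibitor of lipoprotein lipase, had a log2 difference of -0.13 ± 0.16 and was 1 of the 4 members with a lower mean in the high strains.

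**Figure D2:**
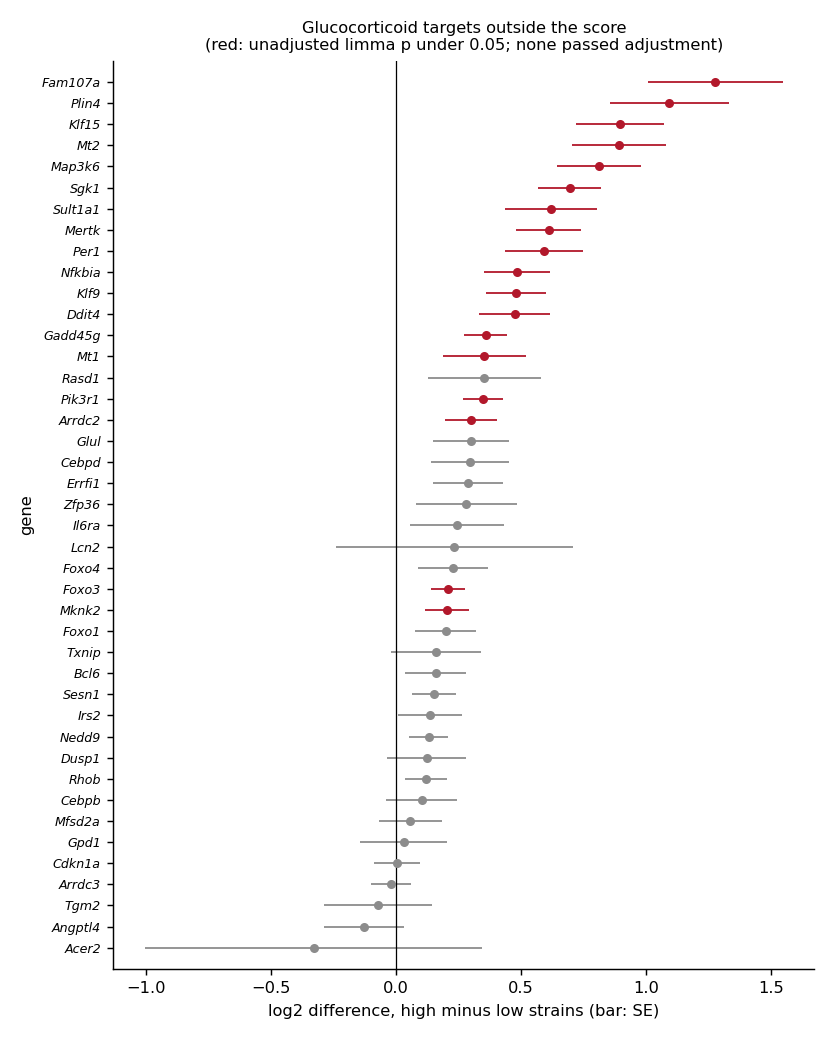
Log2 difference between the 8 high and 8 low strains (horizontal axis; bars are SE) for the 42 glucocorticoid targets outside the score; 38 lie right of 0, and the 18 in red had an unadjusted limma p under 0.05. None passed adjustment over 16147 genes.

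On the list of the receptor and its handling, 0 of 21 members reached an unadjusted limma p under 0.05, beside 4.855% of all genes tested. At that share a list this short would hold few or none. In the continuous fit 1 member did, beside 884 of 16147 genes. Of 21 members tested (receptors, chaperones, coregulators and hormone access), 11 had a higher and 10 a lower mean in the high strains, with a median log2 difference of 0.05. Nr3c1, the glucocorticoid receptor, was at 1099, 1444 and 1586 scaled counts in the high strains and at 1052, 1338 and 1744 in the low strains. These ranges coincide almost fully, and the log2 difference was 0.05 ± 0.11. It was -0.11 when Zbtb16 was left out of the score, so its sign depended on the strains taken. The smallest unadjusted p on this list belonged to Nr3c2, the mineralocorticoid receptor, at 598, 680.5 and 790 against 421, 645 and 664, a log2 difference of 0.22 ± 0.11. BXD21 (421) and BXD36 (428) were far below the other low strains, which were at 627 to 664, within the range of the high strains. Abcb1b, an efflux pump that carries corticosterone, was at 76, 91.5 and 103 against 50, 76 and 92.

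Clock genes had higher means in the high strains in most cases, with the repressor Nr1d1 in the opposite direction. Of 21 members tested, 16 had a higher mean in the high strains (76.2%, beside 50.9% of all genes), with a median log2 difference of 0.16. At an unadjusted p under 0.05, 9 were higher, beside 2.65% of all genes, and 1 was lower, beside 2.2%, with 0 past adjustment. Per1 and Usp2 separated the groups fully. Per1, a clock repressor that glucocorticoids induce, was at 1163, 1268 and 1611 against 511, 1004 and 1138, a log2 difference of 0.59 ± 0.16 (limma adjusted p = 0.822, from 0.252 to 1 over the alternatives). Usp2 (ENSMUSG00000032010, chromosome 9), a rhythmic deubiquitinase, was at 289, 343.5 and 443 against 172, 229.5 and 281 (0.65 ± 0.13). Per2, the partner of Per1, was at 271, 584 and 678 against 191, 312 and 421, with BXD5 and BXD16 inside the low range although they had the highest scores. Wee1, a clock-controlled kinase of the cell cycle, had a log2 difference of 0.60 ± 0.16.

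Nr1d1, the repressor REV-ERB alpha, ran the other way, at 346, 492.5 and 1307 in the high strains and 665, 980.5 and 2157 in the low strains. BXD34 and BXD5 were the high strains above the median of the low strains, and 6 of 8 high strains lay below every low strain, for a log2 difference of -0.88 ± 0.28. Dbp, a transcription factor with one of the steepest daily rhythms, was at 259, 684.5 and 1507 against 357, 846.5 and 2005, nearly the same span in both groups. Arntl, the clock activator BMAL1, had a log2 difference of -0.52 ± 0.29. With log2 Dbp as a covariate, the difference was 0.67 for Sgk1 (0.70 without it), 0.92 for Klf15 (0.90) and 0.98 for Per2 (0.88). In the continuous fit, the limma adjusted p of Per2 was 0.365 without Dbp and 0.00717 with it.

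Inflammatory genes that glucocorticoids hold back had lower means. Of 9 cytokines, chemokines and adhesion genes tested, from a list of 19, 8 had a lower mean in the high strains (median log2 difference -0.20), and 3 reached an unadjusted p under 0.05, beside 2.2% of all genes that were lower. Ccl2, which attracts monocytes, was at 30, 51 and 75 scaled counts in the high strains and at 53, 90 and 115 in the low strains. The related Ccl7 was at 18, 32 and 50 against 33, 58.5 and 114, and the interleukin Il1b at 4, 9 and 23 against 5, 19.5 and 33. The groups overlapped for all 3, with 4 of 8 high strains below the low range for Ccl2 and for Ccl7 and 1 of 8 for Il1b. The log2 differences were -0.81 ± 0.22, -0.89 ± 0.26 and -0.81 ± 0.38. Immune cell genes had lower means in the same strains, in 8 of 9 cases for lymphocytes, 7 of 11 for macrophages and 6 of 9 for neutrophils, and their part in these differences was not tested. Vcam1, an adhesion molecule of vessels, was the 1 member with a higher mean (0.26 ± 0.20). Of the immediate early genes, which neurons switch on with activity, 2 of 20 were lower at an unadjusted p under 0.05: Egr1 (-0.53 ± 0.21) and Egr3 (-0.80 ± 0.33).

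Fabp7, a fatty-acid-binding protein of satellite glia, had the clearest separation among the genes with a lower mean. Fabp7 (ENSMUSG00000019874, chromosome 10) was at 3098, 4486 and 7943 scaled counts in the high strains and at 8737, 10450 and 18804 in the low strains. Every high strain lay below every low strain, and the strains between spanned both, from 3046 in BXD48 to 19877 in BXD40. The log2 difference was -1.20 ± 0.22 (limma adjusted p = 0.186, from 0.0801 to 0.969 over the alternatives), which corresponds to a fold of 0.437. Other satellite glia markers did not share it: the list's median was -0.03, 4 of 8 members had a higher mean in the high strains, and Cdh19, an adhesion molecule of glia, was at 869, 1188 and 1933 against 790, 915.5 and 1395. In bulk tissue, fewer cells of a type and less RNA per cell cannot be told apart.

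Col2a1 (ENSMUSG00000022483, chromosome 15), the main collagen of cartilage, was scarce and fell with the score. It was at 39, 57.5 and 84 in the high strains, at 81, 94 and 228 in the strains between and at 75, 128.5 and 182 in the low strains. Of the high strains 6 of 8 lay below every low strain, with a log2 difference of -1.14 ± 0.20 (limma adjusted p = 0.186, from 0.0112 to 0.692). The other cartilage and bone genes did not all follow: 4 of 7 had a higher mean in the high strains, among them Comp, a cartilage matrix protein, at 0.76 ± 0.33, while Cnmd, the cartilage protein chondromodulin, was at -0.35 ± 0.18. Mia, a small protein secreted by cartilage, was also among the 10 lower genes of smallest p, at 10, 15 and 22 against 17, 25 and 47.

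Prodh (ENSMUSG00000003526, chromosome 16), the mitochondrial enzyme that starts proline breakdown, was not on any list and separated the groups fully. It was at 403, 500.5 and 892 in the high strains and at 193, 308 and 388 in the low strains, with a log2 difference of 0.81 ± 0.16. Slc9a3, a sodium/proton exchanger, was scarce but rose with the score, at 13, 22.5 and 38 against 4, 10 and 18 (1.21 ± 0.29). Galnt16, an enzyme that starts O-linked glycosylation, was at 445, 619.5 and 676 against 337, 420.5 and 488 (0.50 ± 0.11), with 6 of 8 high strains above the low range. In all, 6 genes outside the score had ranges that did not overlap (0.0372% of genes tested): Sgk1, Klf15, Prodh, Usp2 and Per1 were higher and Fabp7 was lower.

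**Figure D3:**
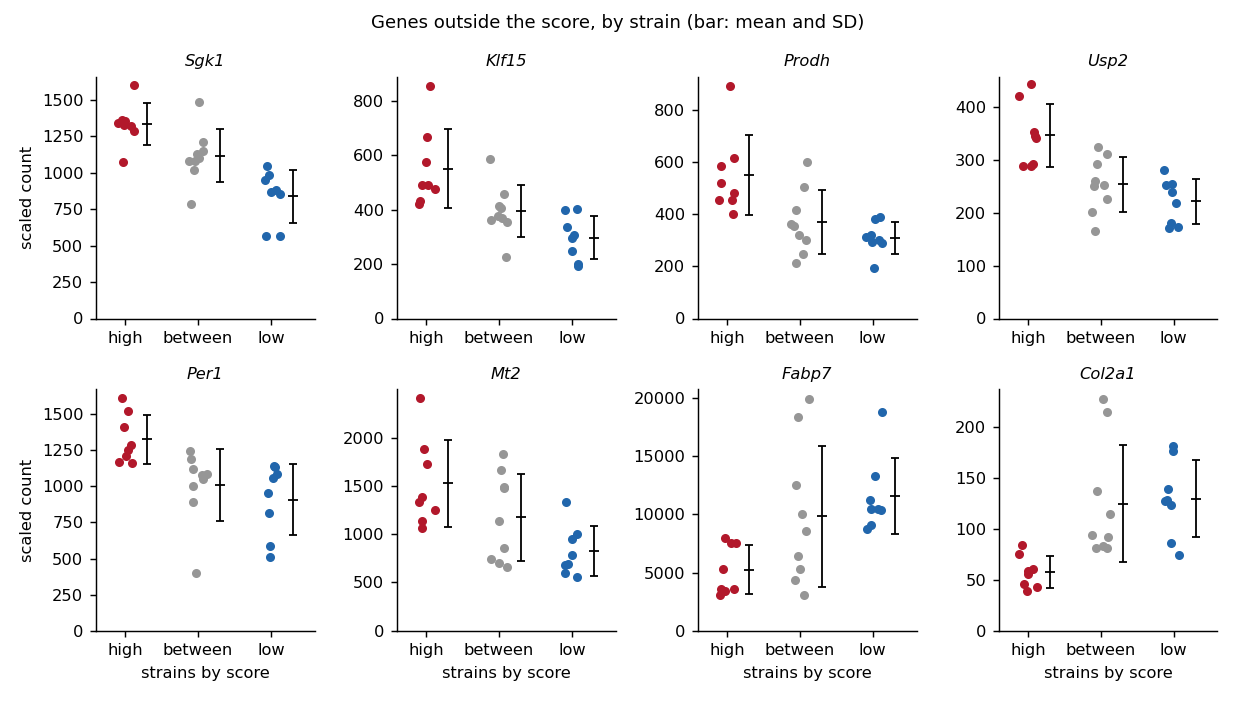
Scaled counts of 8 genes outside the score in the 8 high strains, the 9 strains between and the 8 low strains; 1 point is 1 library, and the black bar is the mean and SD. Sgk1, Klf15, Prodh, Usp2, Per1 and Fabp7 do not overlap between high and low, while Mt2 and Col2a1 do.

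Among the 10 lower genes of smallest p, Pnpla5, a lipid hydrolase gene, lay at separate levels, at 0, 1 and 32 in the high strains and at 2, 38 and 43 in the low strains. Of the high strains BXD34 and BXD89 alone were above 3, and of the low strains BXD55 alone was below 26. Pnpla5, Fam118a and Poldip3 lie on chromosome 15, as does Col2a1, so 4 of the 10 genes did, where 3.75% of tested genes do. Of all 356 genes lower at an unadjusted p under 0.05, 20 lay there (5.62%). The 4 genes are not all separate cases, because Pnpla5 and Poldip3 followed the same split of the 25 strains. Every strain with Pnpla5 at 23 or more had Poldip3 at 1744 or more, and every other strain had it at 1709 or less. Fam118a largely followed this split too. It was at 485 or more where Pnpla5 was at 23 or more, and at 462 or less elsewhere except in BXD1 (506) and BXD55 (518). In the strains between, the slopes of Pnpla5 and Poldip3 on the score were positive (1.625 and 0.28), opposite to their differences between the groups. Rpap2, a phosphatase of RNA polymerase II, had a small difference, at 510, 541.5 and 593 against 555, 724.5 and 830 (-0.37 ± 0.07), with 6 of 8 high strains below the low range. It too lay at separate levels. Of the strains between, BXD2, BXD48, BXD73 and BXD87 were at 502 to 551 and the others at 737 to 819. The low strain BXD21, at 555, was within the range of the high strains. In the continuous fit the limma adjusted p of Rpap2 was 0.708. Cdkn2b, a cell cycle inhibitor, was at 125, 186 and 381 against 250, 390.5 and 500.

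The 10 genes whose pattern over all 25 strains was most like the score, by Pearson's r, were Sgk1, Klf15, Map3k6, Slc9a3, Pik3r1, Fam107a, Prodh, Usp2, Baiap2 and Mertk. The r ran from 0.81 for Sgk1 (Spearman's rho 0.86) to 0.72 for Mertk, as a description over points that share a library. Without BXD13 and BXD15, the strains farthest from the median score, r for Sgk1 was 0.79. Of the 10 genes, 6 were on the list of glucocorticoid targets.

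Genes of neighbouring tissues had higher means in the high strains as well. All 12 skeletal muscle genes had a higher mean in the high strains (median log2 difference 1.61), and 6 reached an unadjusted p under 0.05, beside 2.65% of all genes. In the 9 strains between, 0 of the 12 had a slope on the score of that sign, beside 49.3% of all genes. At an unadjusted limma p under 0.05 the continuous fit found 1 of the 12, beside 884 of 16147 genes. The summed scaled count of the 12 ran from 6120 to 55540 in the high strains and from 2751 to 26820 in the low strains, and none was at 0 in any strain. Pvalb, 1 of the 12, is also on the list of large-diameter neurons, and the muscle level used as a covariate includes it. It was at 2334 in BXD68 and 3041 in BXD14, the low and high strains of smallest sum, a large part of both sums. Actn3, a protein of fast muscle fibres, was at 94, 303 and 2171 against 43, 116.5 and 413, with BXD60 and BXD16 far above the other high strains. Pdk4, a gene of the score, was highest in BXD16 (801), then BXD5 (480) and BXD60 (436). Whether muscle content entered the score was not tested. Adipose genes had a median of 0.42 (8 of 9 with a higher mean, summed 543 to 6530 against 831 to 3364, 1 marker at 0 in some strain) and spinal cord genes one of 0.69 (10 of 11, summed 371 to 6991 against 455 to 4977, 3 markers at 0 in some strain). No member of either reached an unadjusted p under 0.05, and their part in the results was not tested beyond the fits with these levels as covariates.

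Lists of immune cell genes had negative medians. Lymphocyte genes had a lower mean in 8 of 9 cases (median -0.43), none at an unadjusted p under 0.05: the B cell gene Ms4a1 had a log2 difference of -0.81 ± 0.41, and Ighm, the heavy chain of IgM, one of -0.55 ± 0.31. Of the macrophage genes, Cd163, a haemoglobin scavenger receptor that glucocorticoids induce, was at 197, 227 and 429 against 104, 162 and 249. Cx3cr1, the fractalkine receptor, was at 76, 130 and 272 against 163, 251 and 379. Their log2 differences had opposite signs, 0.71 ± 0.22 and -0.81 ± 0.26, while 7 of 11 members of the list had a lower mean and its median was -0.17. Neutrophil genes had a median of -0.10, with a lower mean for 6 of 9 and none at an unadjusted p under 0.05.

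Lists of sensory neuron genes had medians from -0.12 to 0.21. Pan-neuronal genes summed to 284500 to 357300 scaled counts in the high strains and 283700 to 394000 in the low strains, which shows RNA of neurons in every library. Their median log2 difference was -0.06. Medians were -0.12 for peptidergic nociceptors, -0.08 for non-peptidergic nociceptors, 0.03 for large-diameter neurons and 0.03 for injury-response genes. The itch neuron list had a median of 0.21, with 5 of 6 members at a higher mean in the high strains, and the C-low-threshold mechanoreceptor list one of 0.10, with 3 of 5. Il31ra, a receptor for the itch cytokine interleukin 31, was at 291, 466 and 747 against 223, 360 and 468. Of the 59 members of these 7 lists, 3 reached an unadjusted p under 0.05, beside 4.855% of all genes tested. Calca, the gene of the pain peptide CGRP, was at 28510, 32800 and 38291 in the high strains and 27092, 37420 and 73014 in the low strains, so the range of the low strains contained that of the high strains. BXD21 (73014) and BXD36 (62005), the low strains with the lowest Nr3c2, set the top of the low range, and the next, BXD15, was at 40418. BXD40, a strain between, was like them, with Calca at 67452 and Nr3c2 at 468. In BXD21, BXD36 and BXD40, Ntrk3 was at 205, 180 and 189, and at 297 or more in every other strain. Clock was at 1011, 1165 and 1149, and at 1421 or more in every other strain. No high strain had such levels, and the part of these strains in the differences between the groups was not tested. Fasting and fatty acid oxidation genes (median 0.01, 1 of 23 at an unadjusted p under 0.05), hypoxia genes (0.01, 2 of 17) and heat shock genes (-0.02, 0 of 16) showed no common direction. Ddx3y, a Y-linked gene, was between 1183 and 1940 in all 25 libraries, with a log2 difference of 0.12 ± 0.08.

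**Figure D4:**
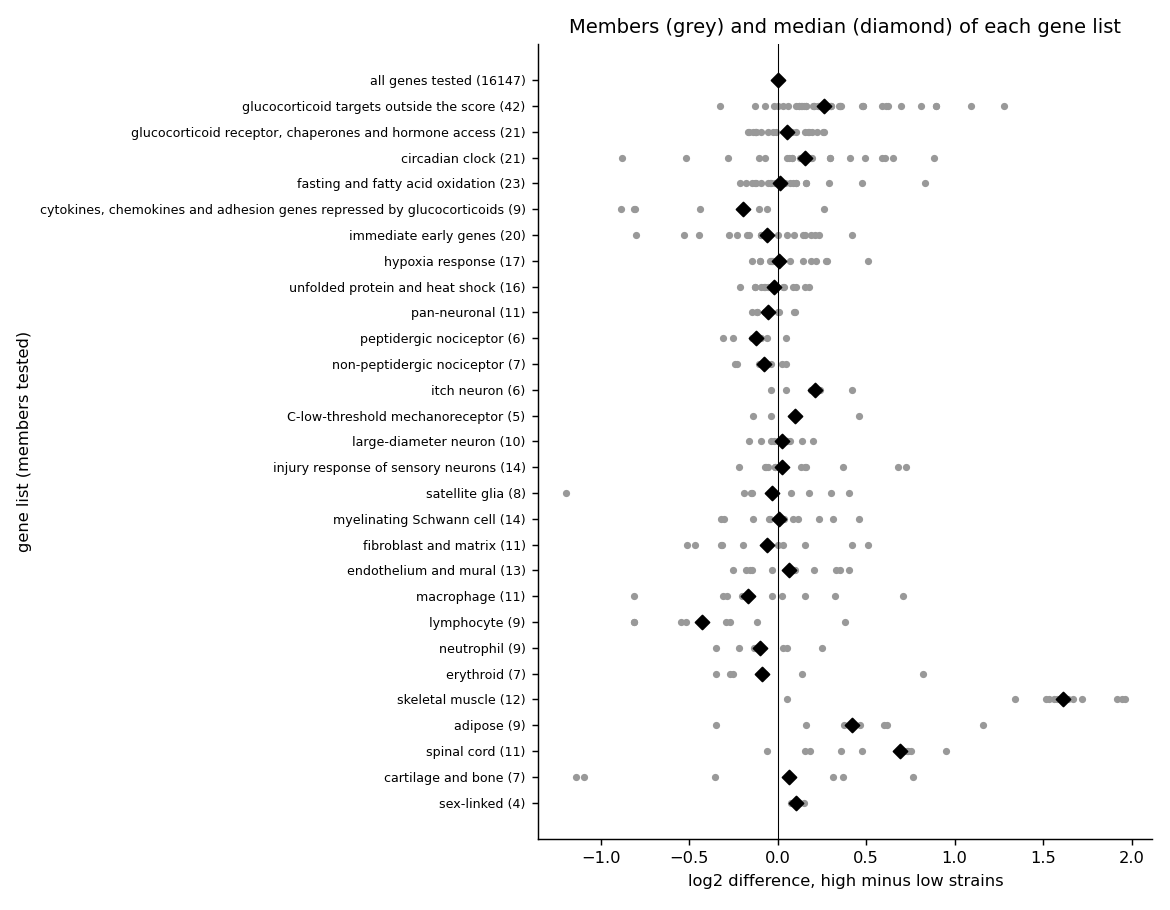
Log2 difference, high minus low strains (horizontal axis), of each member (grey) and the median (diamond) for 28 gene lists, with the number of members tested in brackets and all genes tested on top. Skeletal muscle lies farthest right with a median of 1.61, the glucocorticoid targets have a median of 0.26, and the 7 neuronal lists have medians from -0.12 (peptidergic nociceptor) to 0.21 (itch neuron).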

How the data were processed

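RNA of dorsal root ganglia was measured by sequencing in 25 strains, 1 library each. The submitters' processing notes list TopHat2 2.0.9, HTSeq and CASAVA 1.8.0 and the builds mm9 and NCBIM37. The authors deposited 1 table of 16220 genes whose unit was a normalized score: whole numbers with an upper quartile of 1478 to 1478.25 in every library, so no count model was fitted. The scaling tool is not given in the sources used here. Scaled totals ran from 24637919 to 26860283. The step between low values, clear in 23 libraries, gave 20020000 to 31670000 reads in the high strains (median 26540000) and 20620000 to 40150000 in the low strains (median 22970000).

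Symbols and chromosomes came from GENCODE annotation of a later build, matched for 15697 identifiers. Genes outside the score with a mean of at least 10 (16147, with 68 removed) were tested on log2(value + 1), which understates changes of low genes, with limma 3.58.1 in R 4.3.3 (trended prior, two-sided, Benjamini-Hochberg at 0.05). The p-values measure the spread between strains, which may be technical. The fit was tested on simulated data.

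The members, the 28 gene lists and the tests were chosen with earlier results of these data known. Named genes were taken from the 10 of smallest p in each direction, the 3 of smallest p in each list, 9 preset genes (Xist was not analysed here), the score genes and the 10 most correlated with the score. Further glucocorticoid targets, Vcam1, Arntl and Nr1d1 were named after their values were seen. Alternatives changed the scaling, pseudocount, filter, score, number of strains, covariates and test, or left out 1 strain at a time. The fits of the continuous score with a covariate or with 1 strain left out, and that with muscle and Dbp together, were added after seeing the data.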

Additional observations from a re-analysis of the deposited data

Results flagged for a closer look

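Within the high strains, the strains between and the low strains, 234 groups of values of the named genes were checked for 1 strain far from the others, and 14 were found. Chance alone marks about 1 in 20 groups. BXD1, which was left out of the low strains by a narrow margin, was far below the rest of the strains between for 4 genes: Map3k6 at 133 scaled counts (206 to 322 in the others), Per1 at 399 (894 to 1244), Pik3r1 at 4163 (4702 to 5243) and Slc9a3 at 4 (12 to 23). Among the low strains, BXD13 was lowest for Prodh at 193, BXD28 for Cdkn2b at 250 and BXD55 for Pnpla5 at 2, while BXD36 was highest for Cdh19 at 1395. BXD21 was lowest of the low strains for Wee1 at 74 and for Lyve1, a macrophage and lymphatic gene, at 88. Among the high strains, BXD5 was lowest for Egr3 at 5 and highest for Adm, a hypoxia-responsive peptide, at 168, and BXD60 was lowest for Ncmap, a myelin gene, at 1026. Calca reached 67452 in BXD40, against 27313 to 40540 in the other strains between, and was at 62005 and 73014 in the low strains BXD36 and BXD21.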

How the results depend on the processing

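The 0 genes called between the groups became 3 (2 higher, 1 lower; 1 of them a glucocorticoid target) when Zbtb16 was left out of the score, and 1, lower, with the 6 highest against the 6 lowest strains, with the adipose level as a covariate and with array weights. With 1 strain left out the count was 0 to 1, and the higher calls were 0 to 0 and lower calls 0 to 1. The continuous score gave 12 (11 higher, 1 lower, 8 glucocorticoid targets). It gave 11 with the muscle level (9 higher, 2 lower, 7 targets), 17 with Dbp (16 higher, 1 lower, 8 targets) and 11 with the name ending (10 higher, 1 lower, 7 targets). Leaving out 1 strain it gave 4 to 15 genes, 4 to 14 higher, 0 to 2 lower and 3 to 9 targets. Muscle and Dbp together as covariates gave 1 gene, higher. The cause of these shifts was not tested.

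The 784 genes at an unadjusted p under 0.05 became 503 with standardized score genes, 1781 with the muscle level, 1554 with the continuous score and the muscle level, and 1819 with muscle and Dbp together. The range was 514 to 1206 with 1 strain left out, and 679 to 1256 with 1 left out of the continuous fit.

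Of 2983 values of 73 genes under the alternatives, 54, in 17 genes, passed the threshold that the main value missed, and 24 had another sign, in 5 genes (Angptl4, Cdkn1a, Nr3c1, Dbp and Ddx3y), none past the threshold. Angptl4 was 0.079 with 6 against 6 strains and 0.024 in the TyJ strains. Cdkn1a was -0.0076 with 6 against 6, -0.0027 with Dbp, -0.0024 with array weights and -0.045 to 0.051 with 1 strain left out. Nr3c1 was -0.067 with standardized score genes, -0.11 without Zbtb16, -0.010 without Hif3a, -0.054 without Pdk4, -0.033 with 6 against 6, -0.042 with the continuous score, -0.045 with the muscle level added, -0.024 with Dbp added and -0.039 with the ending added, and -0.00084 to 0.10 with 1 strain left out. Dbp was 0.022 with array weights, and Ddx3y was -0.049 without Zbtb16. No paired analysis was possible because each strain had 1 library and no replicate numbers are shared.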
